A study of Mus musculus with 2 samples.

Results

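The guanylate-binding proteins (GBPs) are large interferon-inducible GTPases. Their genes on the array were taken as the 5 members Gbp2, Gbp3, Gbp6, Gbp7 and Gbp8. Every probe set, the group of short probes that reads 1 transcript, was used when the platform annotation gave it the symbol of 1 member and no other. This gave 7 probe sets, 2 each for Gbp2 and Gbp7 and 1 each for Gbp3, Gbp6 and Gbp8, and the members are 5 of the 12393 genes with a probe set of their own. The arrays were hybridized with RNA of RAW 264.7 cells, an established mouse macrophage-like tumour line, kept for 4 h in fresh DMEM with IFN-gamma at 1000 U/ml alone or together with 300 uM adenosine. Both groups thus received IFN-gamma, and no array of cells without it was analysed here, so the size of the IFN-gamma response itself was not measured. Each group was 1 array of 1 RNA pool made from 2 experiments. No difference below has a replicate check, and no p-value is given.

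GBPs are kept low in resting macrophages and are switched on by IFN-gamma through the receptor chains IFNGR1 and IFNGR2, the JAK kinases and downstream transcription factors such as IRF1. The proteins gather on pathogen-containing vacuoles and on the surface of cytosolic bacteria, where they help to break the vacuole open and to expose bacterial lipopolysaccharide to the caspase-11 inflammasome. Adenosine is a purine released by stressed cells that raises cAMP in macrophages through G-protein-coupled receptors. The comparison addresses how adenosine alters gene expression in macrophages exposed to IFN-gamma.

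With adenosine, 3 of the 5 members were at least 2-fold lower relative to the array median, against 10.1% of the 6818 measured genes. Gbp2 was 16.2-fold lower and Gbp7 8.64-fold lower, Gbp3 was 2.68-fold lower, and Gbp6, at 1.99-fold lower, lay just short of 2-fold. Gbp8, a dim gene, was at least 1.36-fold lower. By probe set, 5 of the 7 were at least 2-fold lower, against 9.51% of 11042 measured probe sets. None was 2-fold higher, as 4.52% of measured genes were. All 5 had log2 ratios (IFN-gamma with adenosine over IFN-gamma alone) below 0 with every scaling tried. In the deposited values and with spiked-in scaling this sets them little apart. There, 78.8% and 50.7% of all measured genes were at least 2-fold lower. Gbp8 could not lie above 0 in the main setting, since its adenosine signal was raised to the floor.

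In the RefSeq annotation of GRCm38.p6 the genes stand in 2 runs of neighbours. Gbp5, Gbp7, Gbp3, Gbp2b and Gbp2 follow each other on chromosome 3, and Gbp8, Gbp9, Gbp4, Gbp10 and Gbp6 on chromosome 5, with no other protein-coding gene between them. The 3 members counted as 2-fold lower were all in the chromosome 3 run, and the chromosome 5 run contributed Gbp6 and Gbp8. That split depends on the cut-off. Gbp6 lay at 1.99-fold and was counted at a 1.5-fold threshold, whereas Gbp3 was not counted at 3-fold. The value of Gbp8 is only a minimum. Promoter sequences of RefSeq were matched for 3 of the 5 members, Gbp2, Gbp3 and Gbp7, and not for Gbp6 and Gbp8. The 3 available are shown because interferon response elements are known for this family. Each line gives the plus strand, which is the coding strand here, in GRCm38.p6 from 250 bases before the annotated start. For Gbp3 the line stops at 222 bases, where the earliest annotated Gbp3 transcript begins. Capitals mark matches to the core of the interferon-stimulated response element (ISRE), which is GAAA, any 2 bases and GAAA again, and to the gamma-activated site (GAS), TTCNNNGAA, both searched on both strands of the 250 bases.
Gbp2 promoter, chr3:142620413-142620662, plus strand: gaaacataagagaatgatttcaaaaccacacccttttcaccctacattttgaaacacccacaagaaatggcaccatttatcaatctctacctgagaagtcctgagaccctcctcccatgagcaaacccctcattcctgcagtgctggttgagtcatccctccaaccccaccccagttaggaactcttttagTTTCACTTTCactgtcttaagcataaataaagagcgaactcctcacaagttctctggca
Gbp3 promoter, chr3:142559794-142560015, plus strand: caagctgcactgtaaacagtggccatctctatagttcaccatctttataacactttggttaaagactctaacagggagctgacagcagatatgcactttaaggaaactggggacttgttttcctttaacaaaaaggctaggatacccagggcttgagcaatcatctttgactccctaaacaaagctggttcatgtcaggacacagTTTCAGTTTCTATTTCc
Gbp7 promoter, chr3:142530086-142530335, plus strand: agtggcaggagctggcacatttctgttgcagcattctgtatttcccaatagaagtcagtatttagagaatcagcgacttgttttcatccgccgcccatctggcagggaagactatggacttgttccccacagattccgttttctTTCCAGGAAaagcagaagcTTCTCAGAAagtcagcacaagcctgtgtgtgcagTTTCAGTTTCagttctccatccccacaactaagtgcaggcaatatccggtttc

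The ISRE core was present in all 3 windows, on the minus strand and within 59 bases of the start. It lay 59 to 50 bases before the start in Gbp2 (TTTCACTTTC as read on the plus strand) and 53 to 44 bases before it in Gbp7 (TTTCAGTTTC). In Gbp3 there were 2 overlapping matches, at 45 to 36 bases (TTTCAGTTTC) and at 39 to 30 bases (TTTCTATTTC). These are counted from the annotated start that ends the 250 bases, which lies downstream of where the earliest Gbp3 transcript begins. The matches are thus closer to that earliest start. Gbp7 also held 2 GAS matches, TTCCAGGAA at 106 to 98 bases and TTCTCAGAA at 87 to 79 bases before the start. The letters of the cAMP response element, TGACGTCA, which reads the same on both strands, were in none of the 3 windows. A second annotated Gbp3 start, downstream of the first, had none of the 3 motifs in its 250 bases. Among the 32851 promoter windows of the same length in the table, 2.98% held the ISRE core, 7.02% the GAS letters and 1.55% the cAMP element. These matches are letters in a window, and binding was not measured.

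The array with adenosine was the dimmer one, so its deposited signals were multiplied by 2.82, which brings the median log2 ratio of probe sets bright on both arrays to 0. Before that step the median signals were 45.9 with IFN-gamma and 15.2 with adenosine. Signals printed for the adenosine array are after this scaling unless called deposited. The 18 probe sets for spiked-in control RNAs had a median deposited log2 ratio of -0.53 (SD 0.19 over these probe sets), which is a smaller shift than the 2.82-fold one of the probe sets bright on both arrays. The controls were thus dimmer too, but by less than the genes, and the cause of the remaining difference was not tested. Signals below 44.0, the 50th percentile of all scaled signals, were raised to that floor before a ratio was taken, and a gene was called measured when its brighter array reached the floor. The error available for a ratio is how far 2 probe sets of 1 gene scatter, which had an SD of 0.52 (log2) over 2375 genes and 0.41 in the brightest 25% of them by signal. For a difference between 2 ratios the SDs for genes of their signal were combined. Spread between cultures or arrays is not part of it.

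All 14 macrophage markers were measured, with scaled signals that summed to 43720 with IFN-gamma and 50540 with adenosine. Without Lyz2, the lysozyme gene, the other 13 summed to 37280 and 37180. The median log2 ratio of the 14 was -0.10, with 8 below 0. By 2-fold or more 1 was lower and 1 higher, against 10.1% and 4.52% of all measured genes. In the deposited values 11 of the 14 were at least 2-fold lower, as were 78.8% of all measured genes. Fcgr1, the high-affinity IgG receptor gene, was 2.87-fold lower (3388 and 1181), and Fcgr3, another IgG receptor gene, had a log2 ratio of -0.94. Lyz2 was 2.07-fold higher (6444 and 13360), but had a log2 ratio of 0.33 with quantile scaling, 0.08 with spiked-in scaling and -0.44 as deposited. Csf1r (-0.15) and Itgam (-0.04) were nearest to 0. By its other probe sets Csf1r had -0.63 and -0.09, and it was at -0.43 with quantile and -0.51 with loess scaling. Itgam was above 0 with trimmed mean, quantile and loess scaling. The part of these marker differences in the GBP values was not tested. Of the other cell types' markers, none of 8 for granulocytes and mast cells and none of 8 for fibroblasts, endothelium and epithelium reached the floor. Of 7 T and B cell markers on the array only Zap70 did, at 45.9 and 97.0. In a pooled culture, fewer cells expressing a gene and less RNA per cell cannot be told apart.

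Gbp2 encodes a GBP that carries a lipid anchor and is recruited to Toxoplasma vacuoles. Its plain probe set (1418240_at) had a signal of 3861 with IFN-gamma and 239 with adenosine (84.7 as deposited), a log2 ratio of -4.02. The other (1435906_x_at) had signals of 2834 and 110 (39.2 as deposited), a log2 ratio of -4.68 or 25.7-fold lower. Both readings were thus far above the floor with IFN-gamma alone and remained above it with adenosine. The suffix of the latter marks probes that may bind other transcripts too, and GBP paralogs share much sequence, so the part of its signal that comes from Gbp2 is uncertain. The readings differed by 0.67 on the log2 scale, somewhat above the 0.57 that is 1 SD of a difference between 2 such ratios at this signal.

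Among the 6818 measured genes the brighter Gbp2 probe set had the ratio of rank 2 from the lowest, and among 11042 measured probe sets its other probe set had rank 1. A curve of log2 ratio by brightness was fitted by local regression (loess) to probe sets at or above the floor on both arrays. At the probe sets of Gbp2, Gbp3, Gbp6 and Gbp7 it lay between -0.10 and -0.06. Gbp8 lay below the fitted range and took the end value of 0.01. Removing the trend moved no member's ratio by more than 0.10.

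Gbp7 encodes a GBP linked to autophagy and to assembly of the phagocyte oxidase. Its brighter probe set (1434380_at) had signals of 3155 and 365 (129.5 as deposited), a log2 ratio of -3.11. The dimmer one (1425156_at) had signals of 908 and 119 (42.3 as deposited), a log2 ratio of -2.93 or 7.61-fold lower. These readings differed by 0.18 on the log2 scale, within the same 0.57. Neither carries a suffix for shared targets. Gbp7 had rank 12 among the measured genes, and 15 of these (0.22%) were at least 8-fold lower.

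Gbp3, the gene next to Gbp7 on chromosome 3, was read by 1 probe set (1418392_a_at), whose suffix marks probes common to several transcripts of a gene. Its signals were 1075 and 400.3 (142 as deposited), a log2 ratio of -1.42. This is 2.71 times the scatter SD of 0.53 for genes of its signal, and it had rank 281 of 6818. Gbp3 had no reading left when probe sets with shared targets were omitted, so its value rests on that 1 probe set.

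Gbp6, at the end of the chromosome 5 run, was read by 1 plain probe set (1438676_at) with signals of 1516 and 763 (271 as deposited). Its log2 ratio of -0.99 is 2.44 times the scatter SD of 0.41, with rank 702 of 6818, so that 10.3% of measured genes were at its ratio or lower. It passed 2-fold in the deposited values (log2 ratio -2.49) and with scaling on spiked-in controls (-1.96), and stayed short of it with the other scalings.

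Gbp8 was the dimmest member (1418776_at), at 59.7 with IFN-gamma and 14.1 with adenosine (5 as deposited). It was counted as measured through its IFN-gamma signal alone, and with the other signal raised to the floor its log2 ratio of -0.44 is a bound. The signals themselves stand 4.24-fold apart, but the lower one lies in a range where no order was read. With the floor at the 33rd percentile of signals (8.74) its log2 ratio was -2.08, and with a pseudocount of 16 and no floor it was -1.33.

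**Figure D1:**
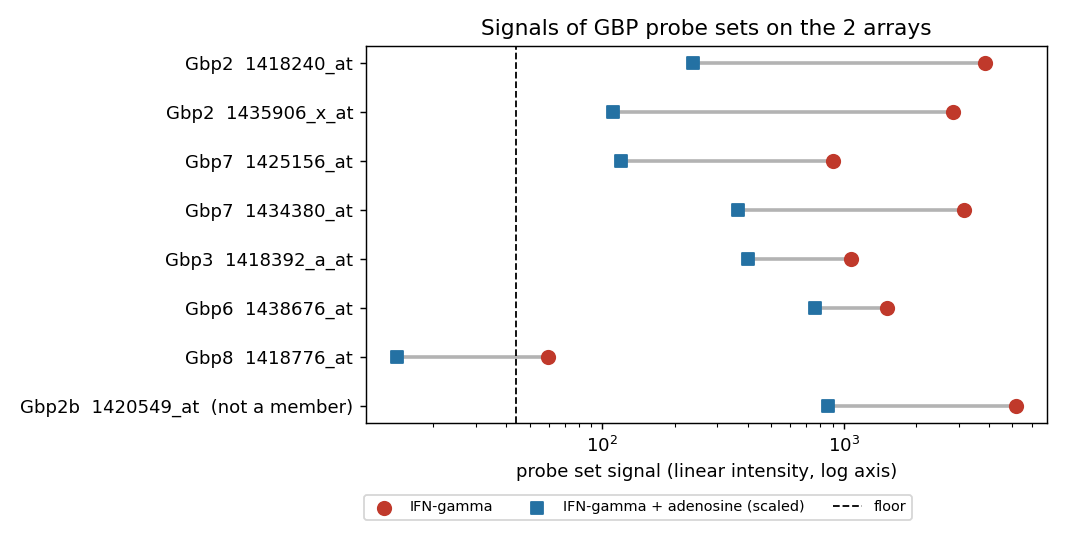
Signals of the 7 GBP probe sets, and of Gbp2b for comparison, on a log axis of linear intensity, with circles for IFN-gamma, squares for IFN-gamma with adenosine (scaled) and a dashed line at the floor of 44.0. Each square lies to the left of its circle, from 3861 to 239 for the brighter Gbp2 probe set to 1516 to 763 for Gbp6, and only Gbp8 crosses the floor.

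Some members differed from each other by more than the probe set scatter. Gbp2 and Gbp7 lay 0.90 apart on the log2 scale, above the SD of 0.57 for their difference, and Gbp3 and Gbp6 lay 0.43 apart, within their SD of 0.66. Between these pairs the distance was larger. Gbp7 was lower than Gbp3 by a further 3.22-fold and than Gbp6 by a further 4.35-fold, and Gbp2 was lower than Gbp3 by a further 6.02-fold. The order from the lowest ratio was Gbp2, Gbp7, Gbp3, Gbp6, in which the neighbours Gbp3 and Gbp6 do not differ beyond 1 SD of scatter. Gbp8 has no place in the order, since its ratio is a bound. With Gbp8 at its bound the median log2 ratio of the 5 members was -1.42, against -0.08 over all measured genes.

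**Figure D2:**
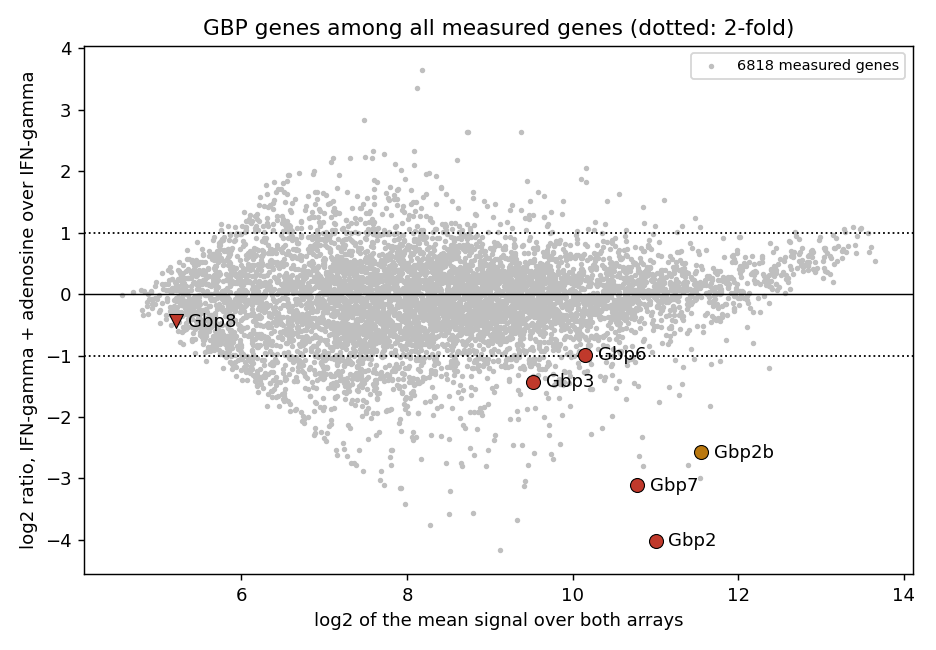
Log2 ratio of IFN-gamma with adenosine over IFN-gamma alone against log2 of the mean signal, for the 6818 measured genes (grey), the 5 members (red, a triangle where the ratio is a bound) and Gbp2b (orange), 1 point per gene. Gbp2 and Gbp7 are at -4.02 and -3.11, whereas Gbp6 is at the dotted line of 2-fold and Gbp8 is in the dim range near the floor.

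1 further GBP gene had a probe set of its own. Gbp2b, the neighbour of Gbp2 formerly called Gbp1, is not a member here and had signals of 5152 and 863 (306 as deposited). Its log2 ratio of -2.58, or 5.97-fold lower, had rank 39 of 6818. The Gbp2b promoter window held 1 ISRE core, 137 to 128 bases before the annotated start that ends the window. That start too lies downstream of the first annotated base of the gene. A probe set annotated to both Gbp8 and Gbp4 was below the floor on both arrays (1.1 and 2.54) and gives no ratio. Gbp5, Gbp9, Gbp10 and Gbp11 were not analysed here.

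The genes with signals most like those of each member were found by distance between the pairs of log2 signals, over the 2 arrays. For Gbp2 the nearest genes outside the lists were Egr1, an immediate-early transcription factor, at a distance of 0.99 (signals of 3221 and 462), the chemokine gene Cxcl9 at 1.09 (3065 and 491) and Evi2a at 1.23. The same 3 genes were nearest to Gbp7, at 0.34, 0.43 and 0.69. Gbp3 and Gbp6 had closer neighbours, Wasf2 (0.05), Mbd2 and Fam136a for Gbp3 and Arcn1 (0.05), Pxn and Clint1 for Gbp6. Limk2, Spice1 and Kank3 were nearest to Gbp8, with their adenosine signals below the floor as well, so that their likeness is set by the IFN-gamma signal.

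The immunity-related GTPases (IRGs) are the other family of IFN-gamma-induced GTPases that act on vacuoles. Of 5 on the array, all measured, 2 were at least 2-fold lower, against 10.1% of all measured genes. The median log2 ratio of the 5 was -0.37. Irgm2, a regulatory IRG, had signals of 2136 and 474 (log2 ratio -2.17). The effector gene Iigp1 had signals of 7356 and 3204 (-1.20), and -2.23 by its other probe set. Igtp (-0.37), Ifi47 (-0.23) and Irgm1 (-0.20) lay within the scatter SD of 0.41 of 0, but with loess scaling, which follows brightness, Igtp and Ifi47 were at -0.59 and -0.54. In the deposited values and with spiked-in scaling all 5 IRGs were at least 2-fold lower, as were 78.8% and 50.7% of all measured genes. The GBP and IRG values are set side by side, and no test between the families was possible.

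Among other large GTPases, the antiviral Mx1 was dim (73.3 and 11.3, at least 1.67-fold lower) and Mx2 was below the floor on both arrays. Atl3, an atlastin of the endoplasmic reticulum that is related to GBPs in structure, was at 112 and 117, a log2 ratio of 0.07 that turns negative in the deposited values and with spiked-in scaling.

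IFN-gamma signalling, the route that switches GBPs on, was read from 19 genes, all measured. They include negative regulators such as Usp18, so a count of lower genes is no measure of how active the route was. At least 2-fold lower were 4 of the 19, against 10.1% of all measured genes, none was 2-fold higher, and the median log2 ratio was -0.25, just above 0 without shared-target probe sets. With all probe sets averaged the 4 became 2, against 8.43% of genes, and in the deposited values 15, against 78.8%. Cebpb, a transcription factor gene named after its value was seen, was highest at 0.94, past 2-fold with trimmed mean scaling and when all probe sets were averaged, and below 0 as deposited and with spiked-in scaling. Irf8, a macrophage transcription factor that binds composite elements with IRF and ETS partners, was lowest with signals of 5262 and 660 (-2.99), but its other probe set read 2138 and 1354 (-0.66). Usp18, a negative regulator of interferon receptor signalling, had a log2 ratio of -2.04, and the phosphatase gene Ptpn6 one of -1.17, with -0.69 by its other probe set. Jak2, the kinase bound to IFNGR2, named here after its value was seen, had -1.07, with -0.87 by its other probe set. With all probe sets averaged both were short of 2-fold, at -0.93 for Ptpn6 and -0.97 for Jak2, and Jak2 also with quantile (-0.96) and loess scaling.

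The receptor chains and proximal factors had log2 ratios on both sides of 0. Ifngr1, the ligand-binding chain, had a log2 ratio of 0.06, which turns negative in the deposited values and with spiked-in scaling. Ifngr2, the other chain, named here after its value was seen, had signals of 390.2 and 695, a log2 ratio of 0.83, with 0.17 by its other probe set and values below 0 as deposited (-0.66) and with spiked-in scaling (-0.13). Jak1 had -0.06 by its brightest probe set, while its others gave -0.55 and 1.22. Irf1, the factor most directly tied to GBP induction and named here after its value was seen, had signals of 2904 and 2440, a log2 ratio of -0.25.

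GBPs reach vacuoles with the help of the ubiquitin-like conjugation proteins of autophagy, and several of them are anchored by prenylation. Of 15 vacuole targeting partners, all measured, 1 was lower and 2 were higher by 2-fold or more, against 10.1% and 4.52% of all measured genes. Their median log2 ratio was 0.43, which becomes -1.07 in the deposited values and -0.54 with spiked-in scaling. Lgals8, a galectin that marks broken vacuoles, was the lower one (994 against 439, log2 ratio -1.18, and -1.24 by its other probe set). Map1lc3a was at least 3.59-fold higher from below the floor (log2 ratio 1.85), and short of 2-fold in the deposited values (0.93). Traf6, a ubiquitin ligase, had a log2 ratio of 1.65, but its other probe sets gave 0.07 and -0.40. Trim21 and Atg3 were nearest to 0 among them, at -0.10 and -0.16, and Trim21 turns positive with quantile and loess scaling (0.04 and 0.01). The other Trim21 probe set gave -0.95, from signals of 201 and 104, and the mean of both was -0.52.

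None of the 6 prenylation genes measured differed by 2-fold. Their log2 ratios ran from 0.11 to 0.52, with Fntb, the farnesyltransferase beta subunit, at 0.52 from a dim 67.9, Icmt, which methylates prenylated ends, at 0.40, and Fdps, which makes the prenyl precursor, at 0.25. Rce1 (0.11) and Ggps1 (0.11) were nearest to 0, but the other Ggps1 probe sets gave 0.14, -0.36 and -0.26. All 6 turn negative in the deposited values, where 5 of them passed 2-fold, as 78.8% of all genes did, and with spiked-in scaling, where none did. Of the 6, 1 is below 0 when all probe sets are averaged or shared ones omitted, namely Ggps1 (-0.09 and -0.36).

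Downstream of GBPs lie the cytosolic sensors and caspases. Of 8 measured genes of this list, 3 were lower and 1 was higher by 2-fold or more, against 10.1% and 4.52% of all measured genes. Their median log2 ratio was -0.83. With the floor at the 67th percentile it was -0.27, and 2 of 6 were at least 2-fold lower, against 6.48% of all measured genes. In the deposited values 7 of 9 were, against 78.8%. Il18, an inflammasome cytokine, had signals of 589 and 196 (-1.59) and Casp1, which processes it, 1386 and 500 (-1.47). Naip2, a sensor of bacterial secretion systems and the third lower gene, named after its value was seen, had -1.12. Its signals were a dim 115 and 53.0, the latter near the floor, and with the pseudocount it was short of 2-fold (-0.93). It had no reading with the floor at the 67th percentile or without shared-target probe sets. Il1b, another product of the inflammasome, was at least 12.5-fold higher, from 30.4 to 551. Its log2 ratio of 3.65 became 2.69 in the deposited values and 1.74 and 4.18 with the floor at the 67th and 33rd percentile. Its 1 probe set carries the suffix for probes common to several transcripts of a gene, and is left out when shared-target probe sets are omitted. Casp8 (0.36) and Nlrp3 (0.24) were nearest to 0 and turn negative in the deposited values and with spiked-in scaling. Casp4, which encodes caspase-11 and is named for its link to GBPs after its value was seen, had signals of 1062 and 616 (-0.79).

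**Figure D3:**
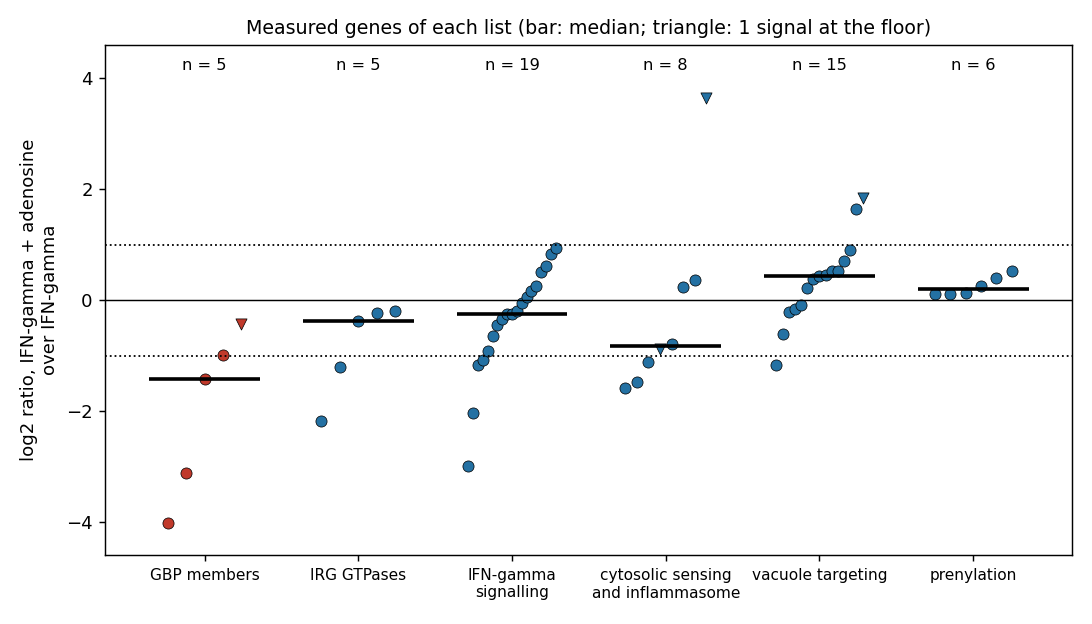
Log2 ratio of IFN-gamma with adenosine over IFN-gamma alone for the measured genes of each list, 1 point per gene, with a bar at the list's median and triangles where 1 signal was raised to the floor. The medians are -1.42 for the GBP members, -0.37 for the IRGs and -0.25 for IFN-gamma signalling (just above 0 without shared-target probe sets). They are -0.83 for cytosolic sensing (-0.27 with the floor at the 67th percentile), 0.43 for vacuole targeting and 0.19 for prenylation. The last 2 turn negative in the deposited values and with spiked-in scaling.

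The choice of scale moved the sizes more than the order. Gbp2 was 45.6-fold lower in the deposited values and 15.4-fold lower with loess scaling. The order Gbp2, Gbp7, Gbp3, Gbp6 was the same in the deposited values and under each scaling and floor tried. Gbp2 had rank 1 or 2 among measured genes in each of these settings except the floor at the 33rd percentile, where it had rank 5 of 9177.

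**Figure D4:**
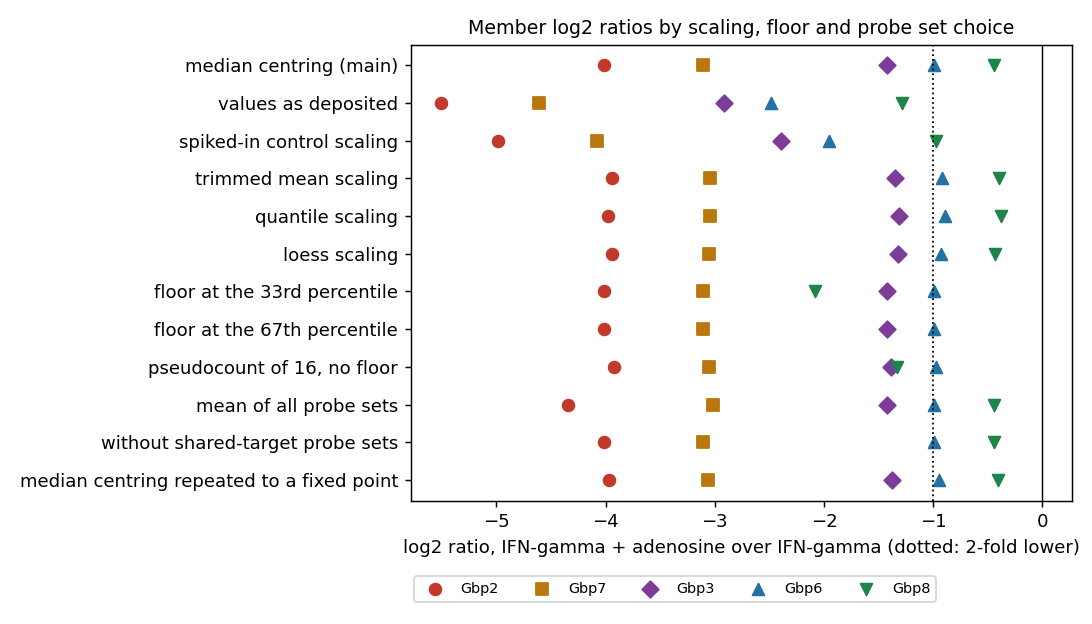
Log2 ratio of each member (colour and marker) under the main setting and each alternative in scaling, floor and probe set choice, with a dotted line at 2-fold lower. Each scaling alternative shifts all members in the same direction, but not by the same amount. In the deposited values Gbp2 is at -5.51, whereas Gbp8 moves less, from -0.44 to -1.28. The floor moves Gbp8, from -0.44 to -2.08. Gbp3 has no point without shared-target probe sets and Gbp8 none at the 67th percentile floor.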

How the data were processed

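Expression was measured on Affymetrix mouse arrays, 1 per treatment. The deposited values are linear intensity values, 1 per probe set, made with GCOS per the submitters' processing notes; how signals were computed or scaled is not given in the sources used here. Of 22690 probe sets, 64 are manufacturer's controls, 20380 carried 1 gene symbol, 691 several and 1555 none in the table used. Symbols were checked against RefSeq through Entrez identifiers. The shift removed was the median log2 ratio, -1.50, over probe sets at or above the 50th percentile of deposited signals on both arrays. A gene was read from the probe set with the highest mean signal, and genes were counted at 2-fold. The members and gene lists were chosen with earlier results of these data known. In each list the 3 largest and 2 smallest absolute log2 ratios were named, and for each member the 3 nearest genes of no list. The calculation was tested on simulated data. Python 3.11.15, numpy 2.4.6, pandas 2.3.3 and statsmodels 0.14.6 were used. The number of arrays limits the precision. Alternatives in scaling, floor, threshold and probe set choice are given in the closing section. An item of 1 gene list is not reported here.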

Additional observations from a re-analysis of the deposited data

How the results depend on the processing

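No paired analysis was possible because a treatment holds a single array, and none could be left out. Median centring repeated to a fixed point was added after the data had been seen. The 5 members lay below 0 in every alternative that measured them. In the deposited values and with spiked-in scaling most measured genes did too. Gbp8 could not lie above 0 where its adenosine signal was raised to the floor. At least 2-fold lower were 3 members, against 10.1% of all measured genes. The count was 5 in the deposited values, where 78.8% of all measured genes were, and 4 with spiked-in scaling, where 50.7% were. It was 4 with the 33rd percentile floor (10.3% of genes) and the pseudocount (10.0%), and 2 without shared-target probe sets (10.1%). In the other alternatives at 2-fold it was 3, against 6.48% to 9.36%. With the cut itself changed, 4 passed 1.5-fold, against 21.8%, and 2 passed 3-fold, against 2.96%. The median of -1.42 became -2.92 in the deposited values, -2.39 with spiked-in scaling, -2.08 (33rd) and -2.27 (67th percentile) with other floors, and -2.05 without shared-target probe sets; at the 67th percentile floor and without shared-target probe sets 4 members are left. Probe sets at least 2-fold lower were 5 of 7, against 9.51% of all measured probe sets. With the cut kept at 2-fold they ranged from 5 to 7, with 7 in the deposited values, where 78.8% of all measured genes were. At that cut IRGs ranged from 2 to 5 and IFN-gamma signalling genes from 2 to 15, both highest in the deposited values, against 78.8% of all measured genes. At a 1.5-fold cut 6 probe sets, 2 IRGs and 6 signalling genes passed, against 21.8% of all measured genes. At 3-fold 4 probe sets, 1 IRG and 2 signalling genes did, against 2.96%. Over all measured genes, 691 were lower and 308 higher (69.2% lower); these counts were 5605 and 10 (99.8%) as deposited, 3538 and 33 (99.1%) with spiked-in scaling, 568 and 398 (58.8%) with quantile scaling, 944 and 599 with the 33rd percentile floor, 328 and 133 with the 67th, 1489 and 879 at 1.5-fold and 202 and 67 at 3-fold. Signal over background limits Gbp8.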
